A study of Homo sapiens with 21 samples.

Results

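ATOH8 and 9 further genes of the bone morphogenetic protein (BMP) pathway were followed across a caffeine dose series in HepG2, a line established from a human liver tumour. The 10 genes, ATOH8, HAMP, ID1, ID2, ID3, SMAD6, SMAD7, SMAD9, BAMBI and BMP4, were matched by Ensembl gene ID among the 37637 features of the gene count table, and each had 1 row. ATOH8 was chosen because its RNA was high at 1000 µM caffeine, so its level there is given as a description with no test. The other 9 were listed for their place in the pathway, with earlier results of these data known. The question put to the data was whether their RNA followed that of ATOH8.

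Poly(A)-selected RNA from 21 cultures was sequenced. Each culture had been changed to serum-free medium and kept in it for 6 h, and all 7 groups, the untreated controls included, share that change of medium. Caffeine was present at 0.01, 0.1, 1, 10, 100 or 1000 µM in 6 groups and absent in the control group (0 µM), with 3 samples per group that are described as biological replicates. The design text names a different compound, coumarin, for the control, whereas each sample is labelled as caffeine at 0 µM, which was followed. Where nothing says that replicates came from separate thaws or passages, p-values measure the spread between these samples only. HepG2 is a tumour line without the liver's endothelial, stellate and immune cells, which limits it as a model of liver BMP signalling. In a bulk sample, fewer cells that express a gene and less RNA of that gene per cell cannot be told apart.

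In the BMP pathway, secreted ligands bind a pair of receptor kinases, which phosphorylate SMAD1, SMAD5 and SMAD9. These join SMAD4, enter the nucleus and raise the transcription of target genes, several of which feed back to restrain the pathway. In hepatocytes the best known target is HAMP, which encodes hepcidin, the hormone that limits iron export into the blood, and ATOH8 is a basic helix-loop-helix transcription factor that is itself a BMP target and has been tied to HAMP transcription.

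Levels are given as CPM, a count as a share of its library with libraries scaled by TMM (trimmed mean of M-values), and depth was similar across the series, with totals from 28043623 to 40827833 counts per library and a median of 32497612. The share of counts from the mitochondrial genome ran from 4.95% to 14.2%. The libraries over 11% were 0.01 µM replicate 1 at 11.7%, 1 µM replicate 3 at 14.2% and 10 µM replicate 1 at 11.3%. Among them, 0.01 µM replicate 1 stood apart for several of the genes: ID1 was at 209.8 CPM there and at 392 and 413 CPM in its sister libraries, and SMAD6 was at 5.72 CPM against 11.2 and 10.0. Results that change without these 3 libraries are given with and without them. All 6 hepatocyte markers (ALB, APOA1, TTR, AFP, HNF4A and SERPINA1) had a mean above 1 CPM at every dose, while the 4 endothelial markers measured summed to at most 1.01 CPM in any library.

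The upstream sequences of the genes were taken from RefSeq (GRCh38.p14), which gave 14 windows of 250 bases ending at a transcription start for the 10 genes. The stretches shown are those of ATOH8, the most abundant riser (ID1), 2 feedback genes with a matched element (SMAD6 and BAMBI) and BMP4, which did not rise. Capitals mark GGCGCC, known from BMP-responsive promoters, GTCTAGAC, the palindrome of the SMAD-binding element, and CANNTG, the E-box bound by basic helix-loop-helix proteins. Both strands were searched, and these 3 motifs do not overlap each other in the stretches shown, which run 5′ to 3′ on the strand of the gene. That of SMAD6 is limited to 30 bases around the match, and the others stop at the first base of an exon in GENCODE v29, which leaves out 1 match in BAMBI and 1 in ATOH8.
ATOH8, chr2:85753741-85753893, plus strand: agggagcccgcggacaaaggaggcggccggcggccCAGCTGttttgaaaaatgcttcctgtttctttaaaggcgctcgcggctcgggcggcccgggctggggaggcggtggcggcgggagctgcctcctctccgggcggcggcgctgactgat
ID1, chr20:31605039-31605282, plus strand: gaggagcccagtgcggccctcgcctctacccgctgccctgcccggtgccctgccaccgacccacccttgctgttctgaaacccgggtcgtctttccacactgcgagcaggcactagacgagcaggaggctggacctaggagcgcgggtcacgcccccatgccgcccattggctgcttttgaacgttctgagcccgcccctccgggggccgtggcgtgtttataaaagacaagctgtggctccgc
SMAD6, chr15:66702206-66702235, plus strand: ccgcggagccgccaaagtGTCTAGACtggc
BAMBI, chr10:28677271-28677341, plus strand: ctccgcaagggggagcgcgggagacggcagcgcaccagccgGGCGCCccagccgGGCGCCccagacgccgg
BMP4, chr14:53955051-53955300, minus strand: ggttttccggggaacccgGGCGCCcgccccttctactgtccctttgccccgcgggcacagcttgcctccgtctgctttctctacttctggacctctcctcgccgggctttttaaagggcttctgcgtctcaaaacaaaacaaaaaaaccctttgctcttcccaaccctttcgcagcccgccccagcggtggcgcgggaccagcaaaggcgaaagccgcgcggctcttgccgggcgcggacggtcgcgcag

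In the stretches shown, the first base of GGCGCC lay 209 and 196 bases before the start of BAMBI and 232 bases before that of BMP4. The HAMP window, not shown, also held it, 105 bases before the start. In all, 3 of the 14 windows had GGCGCC, and it lay in 16.4% of 35114 RefSeq windows of the same length. GTCTAGAC was rare, in 0.182% of windows, and among the 10 genes it lay in that of SMAD6 alone, 12 bases before the start. The E-box letters were common, in 7 of the 14 windows and 61.8% of all windows, and the ATOH8 window held 2 of them, 215 and 55 bases before the start. TGACGTCA, the cAMP response element, was in none of the 14 windows and in 1.65% of all. These are matches of letters only.

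ATOH8 was close to absent until the highest doses. It gave 0.268, 0.451 and 0.447 CPM in the control libraries (8 to 14 counts). The 12 libraries at 0.01 to 10 µM had a lowest value of 0.143, a median of 0.339 and a highest of 0.523 CPM. At 100 µM the 3 libraries read 0.728, 0.846 and 0.652 CPM (21 to 29 counts), and at 1000 µM 9.89, 8.30 and 7.51 CPM (237 to 337 counts). The groups thus separated in 2 steps: the 100 µM libraries were above all of the lower ones, and the 1000 µM libraries were above those at 100 µM.

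The mean level of ATOH8 was 0.388 ± 0.105 CPM (SD, n = 3) at 0 µM, 0.742 ± 0.0976 (n = 3) at 100 µM and 8.57 ± 1.21 (n = 3) at 1000 µM. As the value that chose the gene, its log2 fold change was 4.45 against 0 µM, 4.60 against the mean of the 4 doses from 0.01 to 10 µM and 3.52 against 100 µM. It ranked 27th from the top of 17468 genes tested in the first of these contrasts. ATOH8 lies at chr2:85751344-85788066 on the plus strand in GENCODE v29, and a small RNA gene, MIR6071, overlaps it on the opposite strand. Whether the counting used strand is not given in the sources used here, so reads from overlapping genes of opposite strands cannot be told apart.

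The comparison of 100 µM with 0.01 to 10 µM gives no weight to the 0 and 1000 µM libraries, so ATOH8 was tested there. Those libraries still entered the shared fit, with its scaling, filter and estimate of spread. The log2 fold change was 1.08 ± 0.24 (SE), and the Benjamini-Hochberg adjusted p = 0.0577 of edgeR (quasi-likelihood fit, all genes) was just short of the threshold of 0.05. Only 0.447% of all genes passed in that comparison, and 1.12% had all 3 libraries at 100 µM above all 12 of the lower doses, as ATOH8 did. The call depends on single libraries: ATOH8 passed without 0.01 µM replicate 1 (adjusted p = 0.0178), 0.01 µM replicate 2 (0.0409), 0.1 µM replicate 3 (0.0398) or 1 µM replicate 3 (0.0479), and without the 3 libraries of high mitochondrial share (0.0277). It also passed with DESeq2 (adjusted p = 0.0104). In 11 of the 15 fits that each left out 1 library ATOH8 did not pass, with edgeR adjusted p up to 0.479. The same held in 6 of the 8 other settings, with edgeR adjusted p up to 0.191. The slope of ATOH8 over the 5 doses from 0.01 to 100 µM was 0.19 ± 0.07 (SE) log2 units per 10-fold step and did not pass (edgeR adjusted p = 0.410, where 0.143% of all genes passed).

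**Figure D1:**
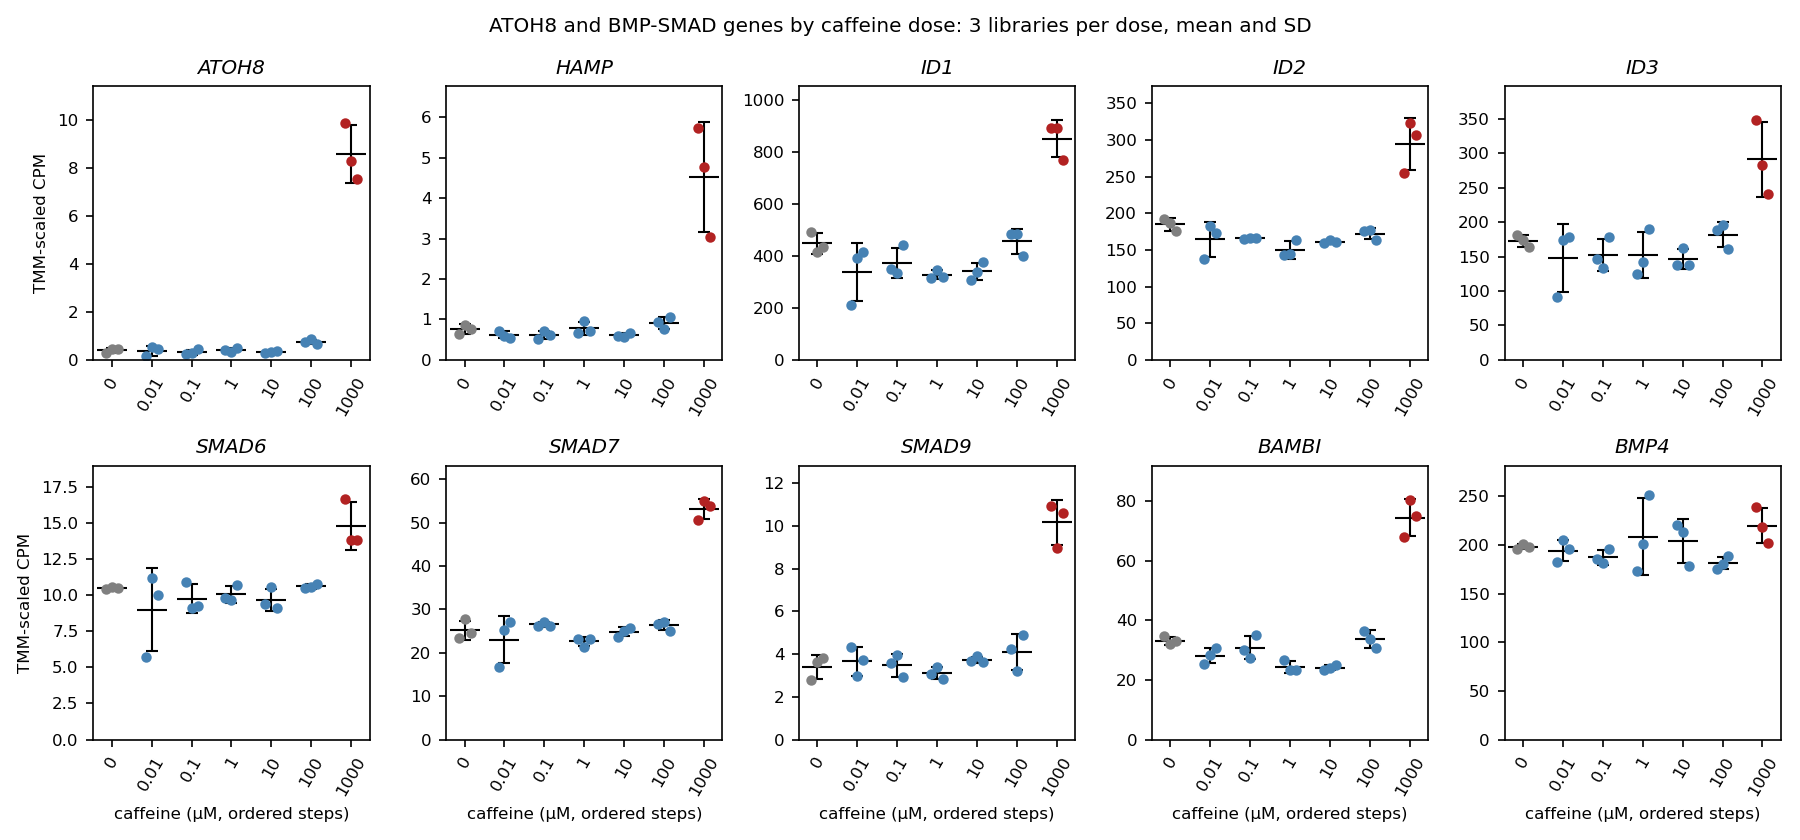
Level of each of the 10 genes (TMM-scaled CPM, linear axis from 0) at each caffeine dose in µM, with 1 point per library, a bar at the mean of 3 libraries and whiskers of 1 SD; controls are grey, 0.01 to 100 µM blue and 1000 µM red. In 9 panels the red points lie above all 18 other points, while for BMP4 they lie within the range of the other doses.

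HAMP, the hepcidin gene, was the member that rose most after ATOH8. It read 0.636, 0.869 and 0.766 CPM in the controls (19 to 27 counts), and from 0.505 to 0.962 CPM with a median of 0.636 in the 12 libraries at 0.01 to 10 µM. The values at 100 µM were 0.932, 0.759 and 1.06 CPM, and those at 1000 µM 5.75, 4.78 and 3.04 CPM (96 to 196 counts). All 3 libraries at 1000 µM were above every other library, and the groups below that dose overlapped.

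The mean of HAMP went from 0.757 ± 0.117 (SD, n = 3) at 0 µM to 4.52 ± 1.37 CPM (SD, n = 3) at 1000 µM. The rise was 2.57 ± 0.24 (SE) on the log2 scale (edgeR adjusted p = 5.06e-07). HAMP ranked 77th of 17468 genes by that fold change, and 38 genes (0.218%) passed the threshold with a change at least as large, HAMP and ATOH8 included. Against 0.01 to 10 µM it rose by 2.79 ± 0.16 and against 100 µM by 2.30 ± 0.23 on the log2 scale. HAMP spans chr19:35280716-35285143 on the plus strand of GENCODE v29.

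At 1000 µM against 0 µM, 8 of the 9 genes other than ATOH8 were higher and none was lower, in a comparison where 41.2% of all genes passed the threshold, 20.6% of all genes as higher and 20.6% as lower. The 8 were HAMP, ID1, ID2, ID3, SMAD6, SMAD7, SMAD9 and BAMBI, and the exception was the ligand BMP4. As the 9 were listed with earlier results of these data known, their share beside that of all genes is a description. The median log2 fold change of the 9 was 0.93, against -0.03 over all genes tested. In all 9 the 3 libraries at 1000 µM were above the 3 controls, as in 25.9% of all genes. Against the mean of 0.01 to 10 µM, which leaves the controls out, the same 8 passed as higher, where 30.7% of all genes passed and 16.3% as higher. The test among the 7 groups called these 8 too, and 28.1% of all genes. In 8 of the 9 genes, all but BMP4, the 1000 µM libraries were above all 12 of those lower doses, as in 9.23% of all genes.

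**Figure D2:**
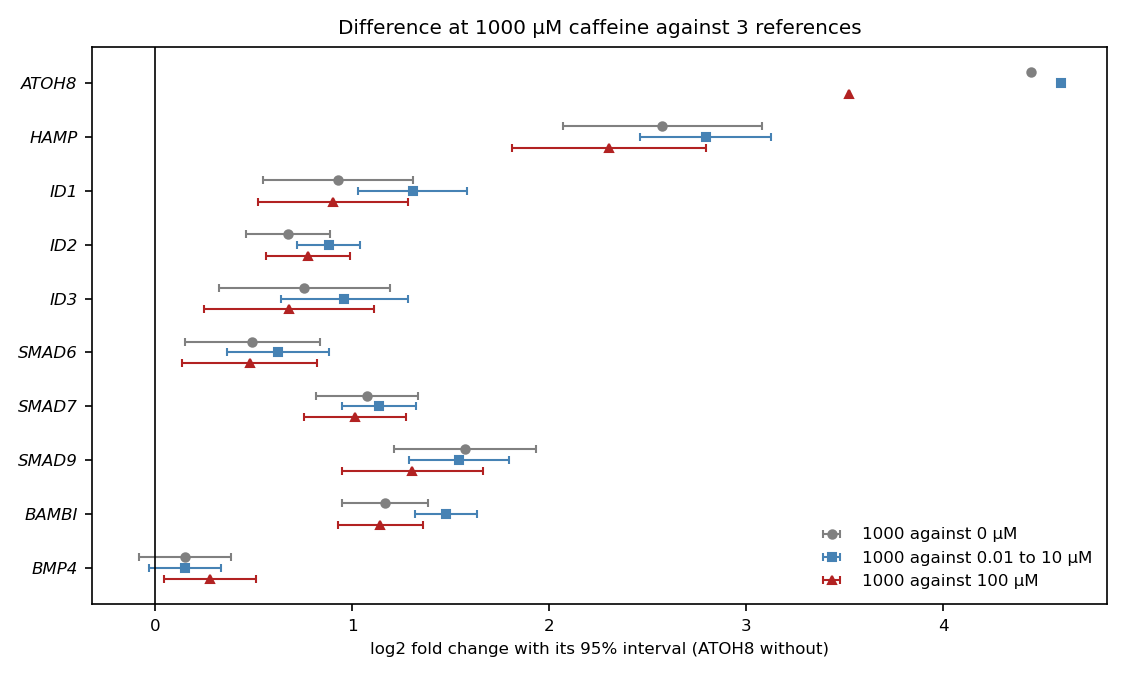
Log2 fold change at 1000 µM caffeine against 0 µM (grey circles), against the mean of 0.01 to 10 µM (blue squares) and against 100 µM (red triangles), with 95% intervals from the edgeR fit; ATOH8 is drawn without an interval because this rise chose it. HAMP lies between 2.30 and 2.79, the ID, SMAD and BAMBI genes between 0.48 and 1.57, and the BMP4 interval against 0 µM spans 0.

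ID1, ID2 and ID3 encode inhibitors of DNA binding, helix-loop-helix proteins without a basic region that sequester E proteins, and are direct SMAD targets. ID1, the highest of the 10 genes per kilobase, was at 492, 416 and 435 CPM in the controls and 892, 891 and 768 CPM at 1000 µM. The 12 libraries at 0.01 to 10 µM ran from 209.8 to 439.8 CPM with a median of 342, and 100 µM gave 484, 484 and 398. The 100 µM libraries of ID1 overlapped the controls, and those at 1000 µM were above all of the others.

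The log2 fold change of ID1 at 1000 µM was 0.93 ± 0.18 (SE) against 0 µM (edgeR adjusted p = 0.000631) and 1.31 ± 0.13 against 0.01 to 10 µM (edgeR adjusted p = 7.28e-07). ID2 read 192, 186 and 176 CPM in the controls and 255, 323 and 307 CPM at 1000 µM, and rose by 0.67 ± 0.10 on the log2 scale (SE; edgeR adjusted p = 6.71e-05). Its 12 low-dose libraries held a narrow range, from 137 to 183 CPM. A gene on the opposite strand, ID2-AS1, overlaps ID2 in GENCODE v29.

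Relative to its mean, ID3 had the widest spread of the 3 ID genes at 1000 µM. It read 349, 283 and 241 CPM there and 181, 173 and 163 CPM in the controls. Its log2 fold change was 0.76 ± 0.21 (SE; edgeR adjusted p = 0.00734), and the top-dose libraries did not overlap the other 18. Against 100 µM, where the libraries read 189, 196 and 161 CPM, ID3 passed narrowly at 0.68 ± 0.21 (edgeR adjusted p = 0.0342). That last call was lost when any one library of the 2 doses was left out, except 1000 µM replicate 3, with adjusted p from 0.0606 to 0.114.

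SMAD6 and SMAD7 encode the inhibitory SMADs, which block receptors and receptor SMADs in negative feedback. SMAD7 read 23.5, 27.7 and 24.5 CPM in the controls, 26.7, 27.2 and 25.0 CPM at 100 µM and 50.5, 54.9 and 54.0 CPM at 1000 µM. The 15 libraries from 0.01 to 100 µM lay at or below the highest control, and the 3 at 1000 µM were close together, far above them. The log2 fold change of SMAD7 was 1.07 ± 0.12 against 0 µM (SE; edgeR adjusted p = 4.64e-06) and 1.01 ± 0.12 against 100 µM (edgeR adjusted p = 2.67e-05).

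SMAD6 showed the smallest rise that passed. Its controls read 10.4, 10.6 and 10.5 CPM, the 12 low-dose libraries from 5.72 to 11.2 CPM with a median of 9.70, and the top dose 16.7, 13.8 and 13.8 CPM. The log2 fold change was 0.49 ± 0.16 against 0 µM (SE; edgeR adjusted p = 0.0219). That call was lost without 0 µM replicate 1 (edgeR adjusted p = 0.0586), without 0 µM replicate 2 (0.0549) or without 1000 µM replicate 1 (0.0662). Another gene, AC013564.1, lies on the same strand within SMAD6 (chr15:66702228-66782848).

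SMAD9, the BMP receptor SMAD whose own transcription responds to BMP, rose by 1.57 ± 0.17 on the log2 scale (SE; edgeR adjusted p = 2.81e-06). It was low, with 2.78, 3.64 and 3.83 CPM in the controls, and reached 10.9, 8.96 and 10.6 CPM at 1000 µM. At 100 µM it read 4.25, 3.21 and 4.88 CPM, which overlaps both the controls and the low doses (2.84 to 4.33 CPM). The annotated transcript SMAD9-IT1 lies inside SMAD9 on the same strand.

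BAMBI encodes a truncated pseudoreceptor that dampens BMP and TGF-beta signalling. Its controls read 34.6, 31.9 and 33.0 CPM and its libraries at 1000 µM 67.9, 80.1 and 75.0 CPM. The rise was 1.16 ± 0.10 (SE) on the log2 scale (edgeR adjusted p = 3.20e-07). BAMBI was the only one of the 9 to pass in the opposite direction at a lower dose. At 10 µM it read 23.3, 23.8 and 25.0 CPM, all below the controls.

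The fall of BAMBI at 10 µM was -0.46 ± 0.10 on the log2 scale (SE; edgeR adjusted p = 0.00664), and it was 1 of 9 genes called, where 22.0% of all genes passed and 10.7% as lower. The value at 1 µM was close to it, -0.44 ± 0.10, but did not pass (edgeR adjusted p = 0.0839). It did pass there with DESeq2 (adjusted p = 0.00825) and without 1 µM replicate 1 (edgeR adjusted p = 0.0380). BAMBI was back at 36.5, 33.8 and 30.6 CPM at 100 µM, a level that overlapped the controls and was 0.33 ± 0.08 above the mean of 0.01 to 10 µM (edgeR adjusted p = 0.0943). That difference passed without 0.1 µM replicate 3 (edgeR adjusted p = 0.0398), with the mitochondrial share as a covariate (0.0423) and with DESeq2 (0.0148).

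BMP4, the ligand among the 10 genes, had the smallest change at 1000 µM. It read 196, 201 and 198 CPM in the controls, 176, 181 and 189 CPM at 100 µM and 239, 219 and 202 CPM at 1000 µM. The top-dose libraries were just above the controls but lay inside the range of the low doses, 173 to 252 CPM. The log2 fold change against 0 µM was 0.15 ± 0.11 (SE; edgeR adjusted p = 0.302), with a 95% interval from -0.09 to 0.38. A rise of BMP4 as large as the estimate for the least changed other member, 0.49 in SMAD6, is thus outside that interval. The 95% interval of SMAD6 itself, from 0.15 to 0.83, overlaps that of BMP4, and a difference between the 2 genes was not tested.

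Against 0.01 to 10 µM, BMP4 differed by 0.15 ± 0.09 (edgeR adjusted p = 0.213). It passed there without the 3 libraries of high mitochondrial share, at 0.20 (edgeR adjusted p = 0.0257), or without 1 µM replicate 3 alone, at 0.19 (0.0478). Its level at 1 µM was the most variable of its doses, 173, 201 and 252 CPM, and the highest of these came from replicate 3, the library with the highest mitochondrial share.

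At the step from 100 to 1000 µM, 7 of the 9 genes rose, where 14.7% of all genes passed and 8.15% as higher. They were the same 8 as against the controls without SMAD6. SMAD6 differed by 0.48 ± 0.16 (SE) and missed the threshold (edgeR adjusted p = 0.0549). It passed with DESeq2 (adjusted p = 0.0212) and, by edgeR, without the 3 libraries of high mitochondrial share (adjusted p = 0.00194). It also passed by edgeR with RLE size factors (adjusted p = 0.0474), at least 10 counts in every library (0.0428) and only the groups compared (0.0250). In the 6 fits that each left out 1 library SMAD6 did not pass, with edgeR adjusted p from 0.0690 to 0.127. BMP4 differed by 0.28 ± 0.11 (edgeR adjusted p = 0.104), and passed without the 3 libraries of high mitochondrial share (0.0144). Both SMAD6 and BMP4 also passed with the mitochondrial share as a covariate, at adjusted p = 0.0484 and 0.0439.

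Below 1000 µM little passed. None of the 9 genes was called against the controls at 0.01 µM, where 4.95% of all genes passed. The same held at 0.1 and 1 µM, where 0% of all genes passed, and at 100 µM, where 6.02% did. For these 4 doses in rising order, the edgeR test had 2, 0, 3 and 0 of the 9 at an unadjusted p under 0.05. Of all 17468 genes tested, 4567, 2651, 3980 and 4467 were under it. DESeq2 called 0, 0, 1 and 0 of the 9 after adjustment, and 2191, 512, 1412 and 2077 of all genes. In order of dose from 0.01 to 10 µM, the median log2 fold change of the 9 against the controls was -0.22, -0.11, -0.16 and -0.20. These 4 comparisons share the same 3 control libraries.

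ID1, ID2 and BAMBI each had 3 doses from 0.01 to 10 µM at which every library was below the controls. All 3 ID1 libraries at 0.01 µM (210, 392 and 413 CPM), 1 µM (315, 346 and 318 CPM) and 10 µM (307, 337 and 374 CPM) were below the lowest control, 416 CPM, and the same held for BAMBI at these doses. For ID2 it held at 0.1, 1 and 10 µM. Such a lack of overlap was common, in 16.3%, 12.4%, 12.5% and 23.4% of all genes in order of dose from 0.01 to 10 µM. The differences of ID1 at 0.01, 1 and 10 µM were -0.40 ± 0.18, -0.46 ± 0.18 and -0.40 ± 0.18 (SE), and none passed (edgeR adjusted p = 0.166, 0.149 and 0.120). With only the groups compared in the fit, ID1 passed at 10 µM (edgeR adjusted p = 0.0145). At 100 µM against 0.01 to 10 µM, none of the 10 genes passed the edgeR test, 4 had an unadjusted p under 0.05 (ATOH8, HAMP, ID1 and BAMBI), and DESeq2 called 2. Of all 17468 genes, 1639 had an unadjusted edgeR p under 0.05 there, and DESeq2 called 192.

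**Figure D3:**
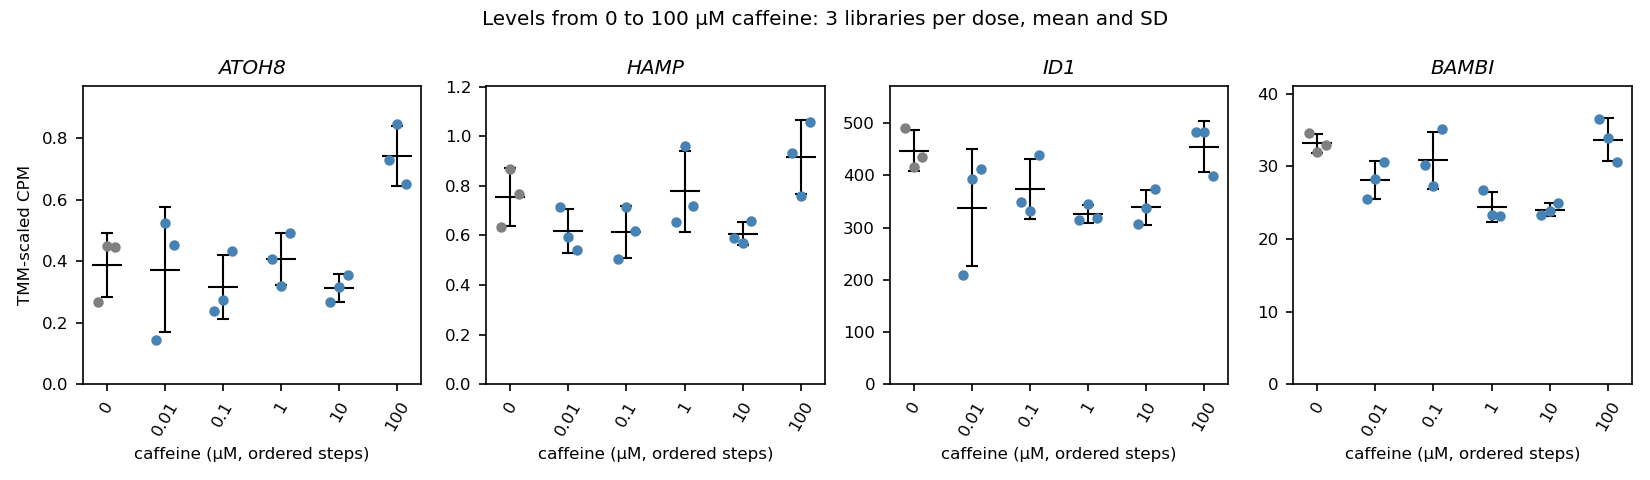
Levels of ATOH8, HAMP, ID1 and BAMBI (TMM-scaled CPM, linear axes from 0) from 0 to 100 µM caffeine, with 1 point per library, a bar at the mean of 3 libraries and whiskers of 1 SD; controls are grey. The ATOH8 libraries at 100 µM lie above all others, whereas those of HAMP, ID1 and BAMBI overlap the controls.

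Levels can be set between genes only per length, here CPM per kilobase of GENCODE v29 exon, with the caution that 8 of the 10 gene models have another version number in v29 than in the count table. In the controls the order was ID1 at 363 CPM per kilobase, ID3 at 96.0, ID2 at 83.8, BMP4 at 64.4, BAMBI at 14.3, SMAD7 at 5.01, SMAD6 at 1.23, SMAD9 at 0.597, HAMP at 0.251 and ATOH8 at 0.0639. No neighbouring pair in that order overlapped over the 3 control libraries. At 1000 µM the lowest 4 had come together, with SMAD9 at 1.78 ± 0.18, SMAD6 at 1.72 ± 0.19, HAMP at 1.50 ± 0.46 and ATOH8 at 1.41 ± 0.20 (SD, n = 3), which overlap. ID3 at 162 ± 30.2 and ID2 at 134 ± 16.0 CPM per kilobase (SD, n = 3) overlapped there as well.

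The rest of the pathway was followed through lists of its ligands, receptors, SMADs, antagonists and inhibitors. None of the 3 other BMP ligands that could be tested (BMP6, BMP8A and BMP8B) passed at 1000 µM against 0 µM. Against the mean of 0.01 to 10 µM, 1 of the 3, BMP6, passed as higher, where 16.3% of all genes did. Its counts were low, 2 to 19 per library over the series and 2 to 12 at 0.01 to 10 µM. BMP8A was low as well, at 7 to 27 counts per library. The median log2 fold change of the 3 in that comparison was -0.16. The counts of the lists that follow are all at 1000 µM against 0 µM and stand beside the 20.6% of all genes that passed as higher and the 20.6% as lower. Of 9 receptors and coreceptors tested, 5 rose and none fell. The largest rises were those of the type II receptor BMPR2 (18.0 to 37.7 CPM, log2 fold change 1.07 ± 0.14, edgeR adjusted p = 2.05e-05), the coreceptor RGMB (0.93 ± 0.09) and the receptor ACVR2B (0.87 ± 0.13). The list's median was 0.52, against -0.03 for all genes tested.

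Of the 5 genes SMAD1, SMAD2, SMAD3, SMAD5 and SMAD4, 4 rose and none fell, with a median of 0.62. SMAD1, a BMP receptor SMAD, went from 11.5 to 21.3 CPM (0.89 ± 0.11, edgeR adjusted p = 7.93e-06). SMAD3, which serves TGF-beta, changed by 0.66 ± 0.08 and the shared partner SMAD4 by 0.62 ± 0.10. SMAD5, also a BMP receptor SMAD, had a mean of 37.7 CPM at 0 µM and 48.9 CPM at 1000 µM. Its libraries at 1000 µM, 43.1 to 55.5 CPM, lay within the range of the 12 low-dose libraries, 35.1 to 56.7 CPM. SMAD2 went from 60.2 to 81.5 CPM, and its libraries at 1000 µM were above all others.

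Restraints on the pathway were measured as well. Among 8 intracellular inhibitors tested, 6 rose and none fell, led by SKIL, a corepressor of SMAD complexes (12.8 to 52.6 CPM, 2.04 ± 0.23, edgeR adjusted p = 3.21e-06), the ubiquitin ligase SMURF2 (0.88 ± 0.09) and the inner nuclear membrane protein LEMD3 (0.55 ± 0.12). Of 4 secreted antagonists tested, only FST, follistatin, passed, a share near that of all genes, and the list's median was 0.01. FST rose from 18.4 to 77.8 CPM (2.08 ± 0.17, edgeR adjusted p = 1.03e-07). Of 5 other BMP-SMAD targets tested, 4 rose and none fell, with GATA2 at 0.85 ± 0.18, HEY1 at 0.84 ± 0.13 and HES1 at 0.70 ± 0.18 the largest. Among the basic helix-loop-helix partners of the ID proteins, TCF12 rose by 0.65 ± 0.11 and TCF3, at -0.10 ± 0.19, did not pass.

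**Figure D4:**
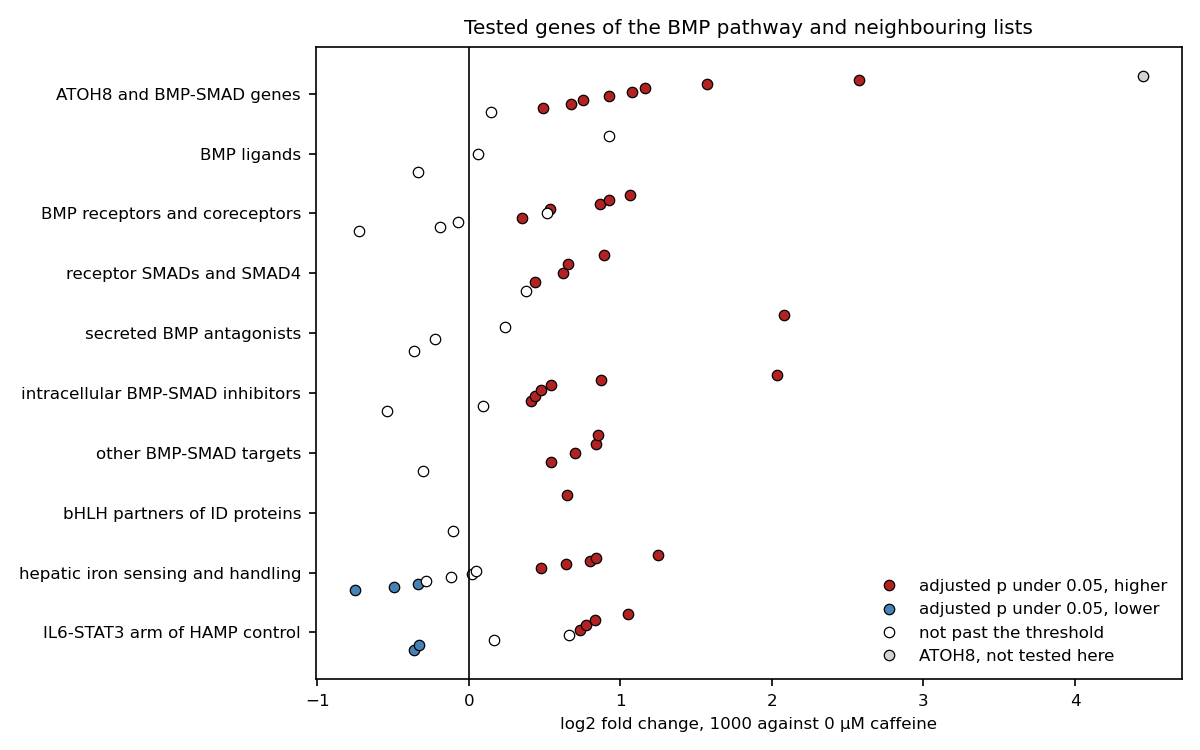
Log2 fold change at 1000 against 0 µM caffeine for each tested gene of 10 lists, 1 point per gene, filled red or blue where the edgeR adjusted p was under 0.05 (higher or lower), white where it was not and grey for ATOH8, which is not tested here. No gene of the BMP ligands, receptors, SMADs, antagonists, inhibitors or other targets passed as lower, whereas the iron and IL6-STAT3 lists hold genes of both directions.

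Genes that sense or handle iron in hepatocytes moved both ways. Of 12 tested, 5 rose and 3 fell (20.6% and 20.6% of all genes), and the list's median was 0.03. FURIN, a protease that processes hepcidin, went from 111 to 265 CPM (1.25 ± 0.11, edgeR adjusted p = 3.48e-07). The transferrin receptor TFRC rose by 0.84 ± 0.20 and SLC40A1, the iron exporter that hepcidin blocks, by 0.80 ± 0.15. The ferritin light and heavy chains, FTL and FTH1, fell by 0.75 and 0.49 on the log2 scale, and TMPRSS6, a protease that restrains HAMP, fell by 0.33 (edgeR adjusted p = 3.71e-05, 0.00518 and 0.0227).

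HAMP is also driven by interleukin 6 through STAT3, and that arm was followed beside the BMP genes. Of 8 genes tested, 4 rose and 2 fell (20.6% and 20.6% of all genes). The receptor IL6R went from 41.9 to 86.9 CPM (1.05 ± 0.09, edgeR adjusted p = 1.34e-07), its partner IL6ST rose by 0.83 ± 0.17 and the kinase JAK1 by 0.77 ± 0.11. FGB and CEBPA fell by 0.33 and 0.36 on the log2 scale, and SOCS3, the feedback target of STAT3, did not pass at 0.66 ± 0.33 (edgeR adjusted p = 0.120).

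Markers of other liver cells were measured beside these results. The summed level of the endothelial markers was 0.161 to 0.334 CPM in the controls and 0.733 to 1.01 CPM at 1000 µM, and all 4 measured had a mean under 1 CPM in every group. The 5 stellate and fibroblast markers summed to 71.1 to 77.1 CPM in the controls and 44.6 to 50.3 CPM at 1000 µM, nearly all of it from ACTA2, which fell from 69.6 to 37.9 CPM (edgeR adjusted p = 4.17e-06). PDGFRB rose from 4.45 to 8.59 CPM (edgeR adjusted p = 7.63e-07), while DES, COL1A1 and LRAT each had a mean under 0.1 CPM in both groups. The 4 macrophage and leukocyte markers measured summed to 71.2 to 84.5 and 53.4 to 76.2 CPM, nearly all from CD68, and CD163 was at 0 in both. Of the 6 hepatocyte markers, APOA1 fell by 1.04 and AFP by 0.69 on the log2 scale and the other 4 did not pass. What part these markers have in the rises above was not tested. The mitochondrial share was 6.94% to 7.86% in the controls and 6.94% to 10.3% at 1000 µM, and with that share as a covariate the same number of genes, 8 of 9, passed at 1000 µM against 0 µM.

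Over all 21 libraries, the genes whose log2 CPM (prior count 2) was most alike to that of ATOH8 among 13060 genes with a symbol and a mean of at least 1 CPM were SMOX (Pearson r = 0.986), TNFRSF1A (0.971), MAFG (0.968), ZNF746 (0.965) and AQP3 (0.964). These values describe libraries that share the 7 doses and carry no test. SMOX, spermine oxidase, read 36.7 ± 1.64 CPM at 0 µM, 42.7 ± 1.84 at 100 µM and 115 ± 3.59 at 1000 µM (SD, n = 3), and AQP3, an aquaporin, 3.30 ± 0.42, 4.25 ± 0.54 and 13.5 ± 0.43 CPM. By the same measure SMAD7 stood at rank 23 (r = 0.949), HAMP at 31 (0.945), BAMBI at 50 (0.929), ID2 at 83, ID1 at 91, SMAD9 at 169, ID3 at 184 and SMAD6 at 396. BMP4 was at rank 3074 (r = 0.408).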

How the data were processed

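The deposited table holds whole-number read counts per gene as the authors made them, with no normalization. Alignment with HISAT2 to GRCh38 and use of DESeq2 are named in the submitters' processing notes, while the counting program, annotation and strand setting are not given in the sources used here. Columns were matched to the 21 samples by their labels, and 21 further columns of per-sample values matched none and were not used. Counts were analysed in R 4.3.3 with edgeR 4.0.16: TMM scaling, an expression filter at a minimum count of 10, 1 quasi-likelihood fit over 7 groups (14 residual degrees of freedom, 17468 genes tested, common biological coefficient of variation 0.162), Benjamini-Hochberg adjustment over all of them and a threshold of 0.05. Each SE was computed as the fold change on the log2 scale over the root of the F statistic. The slope is a contrast of the 5 group means from 0.01 to 100 µM. Scripts were tested on simulated data. Coordinates and exon lengths are from GENCODE v29 (GRCh38). Some items are not reported here. The 10 genes and all lists were chosen with earlier results of these data known. All 10 were named, as were up to 3 higher and 3 lower genes of each pathway list with the largest change past the threshold and a mean of at least 1 CPM, and the 5 genes most alike to ATOH8 over 21 and over 15 libraries; markers, ligands and further genes that did not pass were named after their values were seen. Alternatives were DESeq2 1.42.0, RLE size factors, no scaling factor, other count filters, a threshold of 0.01, the replicate number as a block, the mitochondrial share as a covariate, only the groups compared, leaving out each library, and leaving out the 3 libraries with a mitochondrial share over 11%. The last of these and the fit with no scaling factor were added after the data had been seen.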

Additional observations from a re-analysis of the deposited data

How the results depend on the processing

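No fold change reversed among those recomputed: the 10 genes at 1000 µM and at 100 against 0.01 to 10 µM, BAMBI and ID1 at 0.01, 1 and 10 µM, and ATOH8 at 100 µM and on the slope. The counts of the 9 genes other than ATOH8 called at 1000 µM, against 0 µM, 0.01 to 10 µM or 100 µM, stayed within 1.5 times under each alternative. At 1 µM against 0 µM the count was 0 of 9, and 1 with DESeq2, and leaving out single libraries gave 0 to 1. At 10 µM it was 1, and 2 with only the groups compared in the fit. At 100 µM against 0.01 to 10 µM it was 0 of 10, 2 with DESeq2, 1 with the mitochondrial share as a covariate, 1 without the 3 libraries of high mitochondrial share, and 0 to 2 without single libraries. Same-numbered libraries of different doses did not deviate together (r from -0.437 to 0.249, median 0.0199, 11 of 63 pairs above 0.1, and 5 of 21 libraries correlated best with their own number), and the main fit did not pair them. What the numbers stand for is not given in the sample labels. The replicate block changed no call of the 10 genes. Counts over all genes moved more: at 0.01 µM from 864 to 0 with the replicate block and 2191 with DESeq2, at 0.1 µM from 0 to 512 and at 1 µM from 0 to 1412 with DESeq2, and at 100 µM from 1051 to 445 with the block, 2077 with DESeq2 and 4015 with only the groups compared. The block left 4034 of 4901 among the 7 groups. At 100 µM against 0.01 to 10 µM the count was 78, and 48 to 192 over the alternatives with all libraries or without the 3, and on the slope 25, and 11 to 108, while at 1000 against 100 µM the 2568 became 4128 without the 3 libraries. Leaving out single libraries gave 1260 to 3707 at 10 µM, where all libraries gave 3839, and 26 to 1133 at 100 µM. Without 1000 µM replicate 3, the count at 1000 µM fell from 5365 to 3022 against 0.01 to 10 µM, from 2568 to 1302 against 100 µM (1405 and 1412 without 100 µM replicate 1 or 2) and from 4901 to 3071 among the 7 groups. ATOH8 gave no value under a filter of 10 counts in every library. Its 4 to 15 counts at 0.01 to 10 µM limit the precision there, and counting error alone is large at that depth.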

Other observations

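Without the controls and the top dose, the genes most alike to ATOH8 changed. Over the 15 libraries from 0.01 to 100 µM they were ATP6V0D1 (Pearson r = 0.893), VASP (0.887), SMOX (0.879), ZNF48 (0.876) and CNN2 (0.860) among 13060 genes, and SMOX alone was also among the first 5 over all 21 libraries. Among the BMP genes, ID1 stood at rank 18 (r = 0.841) and ID3 at rank 32 (0.822), HAMP at rank 3031 (0.399), and SMAD9 and BMP4 below 0. The ATOH8 counts behind these values are 4 to 29 per library. The lowest, 4 counts, is 0.01 µM replicate 1, which was also the lowest library for ID1, ID2, ID3, SMAD6 and SMAD7.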
